A study of Mus musculus with 14 samples.

Results

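The 10 genes described here, Col1a1, Col1a2, Sparc, Spp1, Ibsp, Bglap, Dmp1, Alpl, Runx2 and Sp7, are expressed along the osteoblast lineage or encode the proteins of bone matrix. They were chosen by symbol and are 10 of the 32589 features in the tables of 6 sections and 10 of the 19465 features in those of the other 8 sections. All 14 sections were mouse tissue, formalin fixed and paraffin embedded, read on a spatial array in which each spot covers a small region holding several cells. The 6 sections of the first kind came from purchased wild-type C57BL/6 mice, 1 section per group: fetal liver at E14.5 and at E13.5, adult spleen, and leg bone or marrow from a P8 mouse, an 89-week mouse and a 6-month mouse. The other 8 came from a cross of C1qa heterozygous mice: wild-type and C1qa knockout E14.5 fetal livers numbered 2 and 4, and wild-type and C1qa knockout spleens from 3-month mice numbered 1 and 2, so that each of these 4 groups had 2 sections.

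The preparation of the 3 bone samples differed as well as their age. The P8 leg bone was fixed and embedded without decalcification, so bone, cartilage and the surrounding soft tissue could be on the section. The 89-week leg bones were cryosectioned after fixation and the bone was removed as the section warmed, so that the embedded material was marrow. The 6-month bone was decalcified in 0.5 M EDTA for 5 days, and only 15 of its 814 in-tissue spots reached the minimum of 1000 detected genes used throughout. Age and preparation cannot be told apart in these samples, and in spots that mix cells, fewer cells of a type and less RNA per cell cannot be told apart either.

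Bone is laid down by osteoblasts, which secrete an organic matrix made mostly of type I collagen and then bring about its mineralization; some osteoblasts become enclosed in the matrix as osteocytes. Runx2 and Sp7 (osterix) are the transcription factors that commit progenitors to the lineage. Alpl (tissue-nonspecific alkaline phosphatase) removes the mineralization inhibitor pyrophosphate, while Ibsp (bone sialoprotein), Spp1 (osteopontin), Dmp1 and Bglap (osteocalcin) are matrix proteins that bind mineral or calcium. In a growing long bone, cartilage at the growth plate enlarges into hypertrophic cells that make collagen X, and new bone is deposited on its remnants.

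Sequenced depth was lowest in the EDTA section, with 449883 UMIs (unique molecules) in tissue, and highest in the purchased fetal liver of E14.5, with 56182915. The P8 section had 21977622 UMIs in 1085 passing spots and the 89-week section 8434382 in 932. C1qa was at 25.8 to 269 CPM (a gene's UMIs scaled to a common section total) in the wild-type cross sections and at 0.0548 to 0.189 CPM, on 1 or 2 UMIs each, in the knockouts. Cartilage genes took 3.85% of UMIs and skeletal muscle genes 0.852% in the P8 section, against 0.00247% and 0.00193% in the 89-week section, while neutrophil genes took 0.608% and 2.89%. Under the same label of bone marrow, the P8 section thus held cartilage and muscle beside marrow, and the 89-week section traces of them.

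The 10 genes together made up 12.2% of all UMIs in the P8 section (2687508 counts) and 0.0679% in the 89-week section (5725 counts). The ratio of these shares was 180 (exact 95% interval 176 to 185). With 1 section per age there was no replicate and no test, and this and all other intervals on ratios cover counting error only. Across P8 spots the summed share ran from 1.60% to 43.3% with a median of 10.2%, and across 89-week spots from 0 to 7.26% with a median of 0.0398%. Only 3 of the 932 spots in the 89-week section reached the lowest P8 spot. Type I collagen supplied 89.1% of the summed counts at P8, so the single genes are given below.

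Both chains of type I collagen, the main fibre of bone, tendon and skin, were abundant at P8. Col1a1 was at 59283 CPM at P8 and 198 CPM at 89 weeks, a ratio of 299 (285 to 314). Col1a2 was at 49660 and 213 CPM, a ratio of 233 (223 to 245). Every P8 spot held UMIs of both genes; at 89 weeks 41.5% of spots held Col1a1 and 63.5% held Col1a2.

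Among the matrix proteins, Sparc (osteonectin), a collagen-binding protein that other connective tissues also make, was at 6783 CPM at P8 and 72.0 CPM at 89 weeks, a ratio of 94.3 (87.0 to 102). Spp1, which macrophages and osteoclasts can also make, was at 3345 and 59.2 CPM, a ratio of 56.5 (51.8 to 61.9). Ibsp was at 1120 and 45.5 CPM, the smallest ratio of the matrix proteins at 24.6 (22.2 to 27.3). Bglap, a product of mature osteoblasts, was at 1102 and 16.6 CPM, a ratio of 66.4 (56.2 to 79.0). The near-identical copies Bglap2 and Bglap3 lie beside it, so the division of reads among the 3 genes is uncertain; Bglap2 had 27822 counts at P8 and 257 at 89 weeks, and Bglap3 925 and 36. Dmp1, made mainly by osteocytes, had the largest ratio of the 10 genes: it was at 541 CPM at P8 and at 0.711 CPM, on 6 counts, at 89 weeks, a ratio of 761 (349 to 2073).

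Alpl was at 245 CPM at P8 and 7.23 CPM at 89 weeks, a ratio of 33.9 (26.3 to 44.4). Of the transcription factors, Sp7 was at 78.4 and 3.08 CPM (26 counts), a ratio of 25.4 (17.3 to 39.0). Runx2 stood apart from the other 9 genes, at 126 CPM at P8 and 63.5 CPM at 89 weeks, a ratio of 1.99 (1.81 to 2.18). Runx2 UMIs were found in 42.2% of 89-week spots, against 2.58% for Sp7. With every spot thinned to 2000 UMIs, Ibsp UMIs were in 60% of P8 spots and 10.3% of 89-week spots (88.6% and 32.0% unthinned, median depths 16659 and 8513 UMIs). In the purchased E14.5 fetal liver, a tissue without bone, 0.234% of spots held Ibsp at a median of 64102 UMIs. Spots outside the P8 tissue held 11.75% of their UMIs in the 10 genes, and the part of this off-tissue RNA in the values of single spots was not tested.

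**Figure D1:**
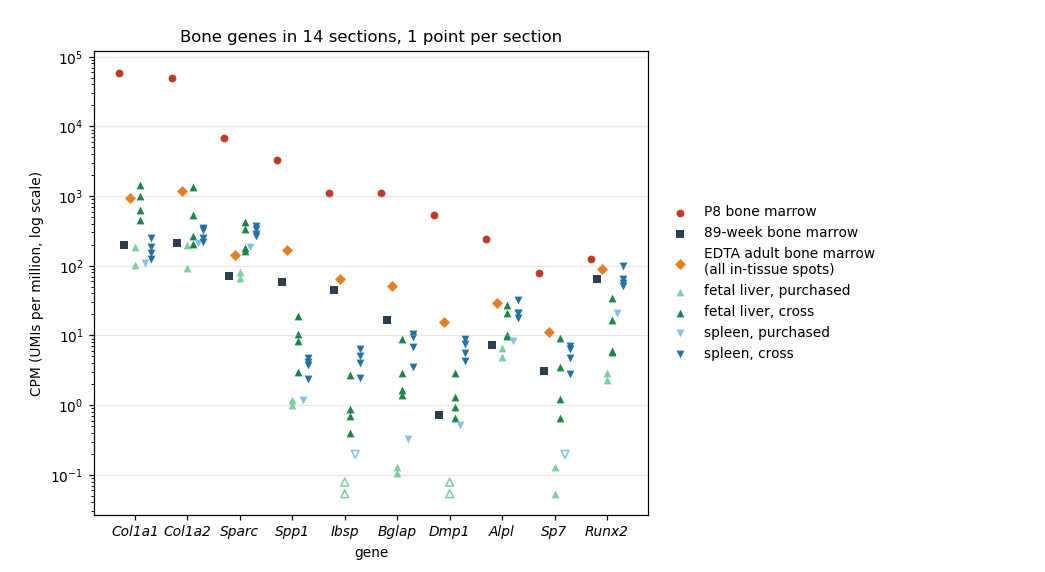
CPM (log scale) of each of the 10 genes in the 14 sections, 1 point per section, with no error bars and with the EDTA section over all in-tissue spots. Open symbols mark sections with fewer than 3 counts, drawn at the level of 3 counts. The P8 section is the highest for all 10 genes, by a wide margin for all but Runx2, whose level in the cross spleens reached 101 CPM against 126 at P8.

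Counting a feature as higher when its CPM differed by at least 4-fold, 9 of the 10 genes were higher at P8, with Runx2 the exception, and none was lower. Of 14075 features with at least 20 counts over both sections, 17.6% were at least 4-fold higher at P8 and 5.3% at least 4-fold lower. The median log2 ratio was 5.94 over the 10 genes and 0.31 over all features. By rank of the ratio, Dmp1 was 32nd, Col1a1 65th and Runx2 4470th. Because the P8 section held cartilage and muscle, the ratio was also taken over the 317 P8 spots in which neutrophil genes made up 0.5% or more of the UMIs, as they did in all 932 of the 89-week spots. These P8 marrow spots held 8.92% of UMIs in the 10 genes, 131 times the 89-week share, and the lowest of them held 1.60%. They were set by neutrophil genes alone, so bone or cartilage in them was not limited. Their median share of the 10 genes was 9.39%, against 10.2% over all P8 spots, and P8 spots off the tissue held 11.75%. The ratio in marrow free of bone and of off-tissue RNA was not tested. Over all passing spots, without Col1a1, Col1a2 and Sparc, which other connective tissue cells also express, the ratio was 33.5.

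The genes around collagen and mineral differed between the sections as well. All 10 other osteoblast genes were at least 4-fold higher at P8, among them Col11a2 (2339 against 9.60 CPM), Bglap2 (1266 against 30.5) and Postn, which encodes periostin (754 against 1.78). Col11a1, another collagen XI gene, was listed with cartilage, and the part of cartilage in the Col11a2 level was not tested. Of the 15 genes for collagen assembly and cross-linking, 14 were higher, among them Col5a2 (2194 against 16.1 CPM), the collagen chaperone Serpinh1 (1638 against 17.3) and Pcolce (978 against 40.7). Of 15 osteogenic regulators, 12 were higher, such as the parathyroid hormone receptor Pth1r (226 against 5.69 CPM); Atf4, which is widely expressed, was at 225 and 243 CPM. Of 9 mineralization genes, 4 were higher. Phospho1, a phosphatase of matrix vesicles, was at 370 against 43.9 CPM, whereas Mgp, an inhibitor of calcification, was at 553 against 184 and Ank at 163 against 43.2. All 5 osteocyte genes that passed the count minimum, of 6 listed, were higher; Phex was at 124 against 9.60 CPM, and Sost, the osteocyte inhibitor of Wnt signalling, had 65.9 CPM at P8 and a single count at 89 weeks.

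Genes of other cell types differed between the same sections. Of 13 osteoclast genes, which belong to the cells that resorb bone, 8 were at least 4-fold higher at P8, among them Ctsk at 2361 against 21.2 CPM and Acp5 at 1540 against 77.2. Mmp9, also a neutrophil product, was not among the 8, at 1725 against 903 CPM. All 15 cartilage, 11 skeletal muscle and 10 fibroblast and tendon genes were at least 4-fold higher at P8. In the other direction, 8 of 11 neutrophil genes, 5 of 8 megakaryocyte genes and 4 of 7 lymphocyte genes were at least 4-fold lower at P8, while none of 10 erythroid and 9 macrophage genes passed the fold either way. Marrow stroma genes were mostly level, 2 of 8 being higher. The part of these cell types in the differences of the 10 genes was not tested beyond the marrow spots above.

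In the P8 section the bone genes formed bands. Moran's I, which is near 0 when adjacent spots are unrelated and near 1 when they are alike, was 0.82 for Ibsp, 0.80 for Spp1, 0.76 for Sparc, 0.74 for Col1a1, 0.73 for Bglap, 0.72 for Col1a2, 0.61 for Dmp1 and 0.59 for Alpl. Sp7 and Runx2, with fewer UMIs, were at 0.39 and 0.35. Over 12361 features found in at least 50 spots the median was 0.04 and the 95th percentile 0.37, which 9 of the 10 genes exceeded. When every spot was thinned to 2000 UMIs, leaving out 5 shallower spots, the values ran from 0.72 for Col1a1 down to 0.09 for Runx2 and 0.05 for Sp7, the 2 genes with the fewest UMIs. In the 89-week section 6 of the genes were found in at least 50 spots. Their values were 0.14 for Col1a1, 0.06 for Col1a2, 0.04 for Runx2 and Sparc, 0.02 for Spp1 and 0.01 for Ibsp. Over 9488 features there the median was 0.0045 and the 95th percentile 0.051, which 2 of the 6, Col1a1 and Col1a2, exceeded.

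**Figure D2:**
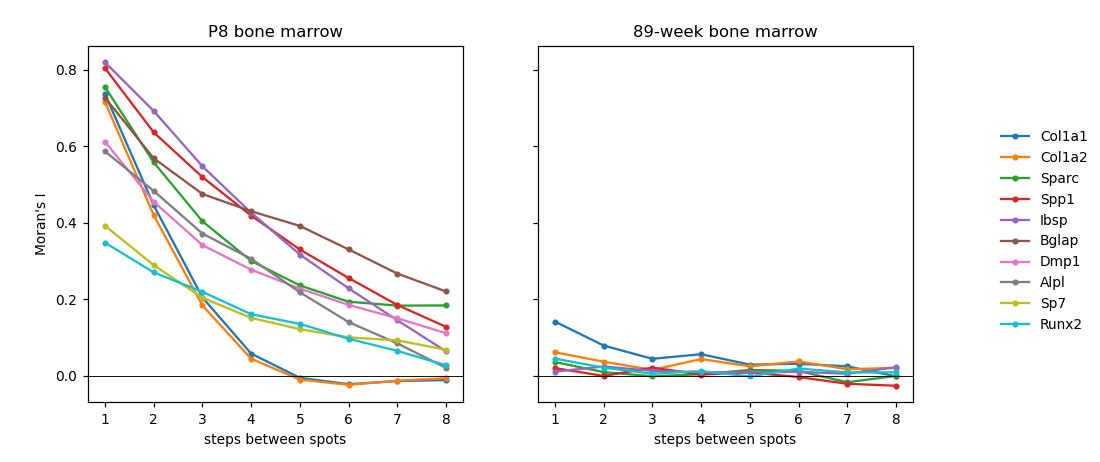
Moran's I (vertical axis) against the number of array steps between the spots compared (horizontal axis) for the genes found in at least 50 spots of the P8 section (left, 10 genes) and of the 89-week section (right, 6 genes). Col1a1 and Col1a2 reach 0 by 5 steps at P8 while Bglap is still at 0.39, and every 89-week line stays below 0.15.

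The distance over which neighbours stayed alike differed among the genes. At 5 steps Moran's I was -0.01 for both Col1a1 and Col1a2 but 0.39 for Bglap, 0.33 for Spp1 and 0.32 for Ibsp, and at 8 steps Bglap was still at 0.22. Of the 108 spots highest in Ibsp (10% of the section), 43 formed a single patch, and 70.1% of the neighbours of such spots were themselves among the highest; the figure was 54.1% for Bglap, 48.2% for Spp1, 40.9% for Col1a1 and 20.9% for Runx2, against 9.95% of all spots. At 89 weeks the same measure was 19.6% for Col1a1, 10.97% for Ibsp and 9.38% for Spp1, against 9.98%.

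Ibsp and Bglap occupied different places at P8. None of the 108 spots highest in Ibsp was among the 108 highest in Bglap, whereas Col1a1 and Col1a2 shared 94 and Spp1 and Bglap shared 45. Across the 1085 spots Pearson's r was 0.13 for Ibsp and Bglap, 0.16 and 0.12 within the 2 largest pieces of the tissue, and 0.98 for Col1a1 and Col1a2. Spp1 correlated with both, at 0.68 with Ibsp and 0.61 with Bglap, and with Dmp1 at 0.79. The median over the 45 pairs was 0.47, or 0.21 after thinning. These correlations are across neighbouring spots of 1 section, which share library and depth, and they carry no p-value.

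**Figure D3:**
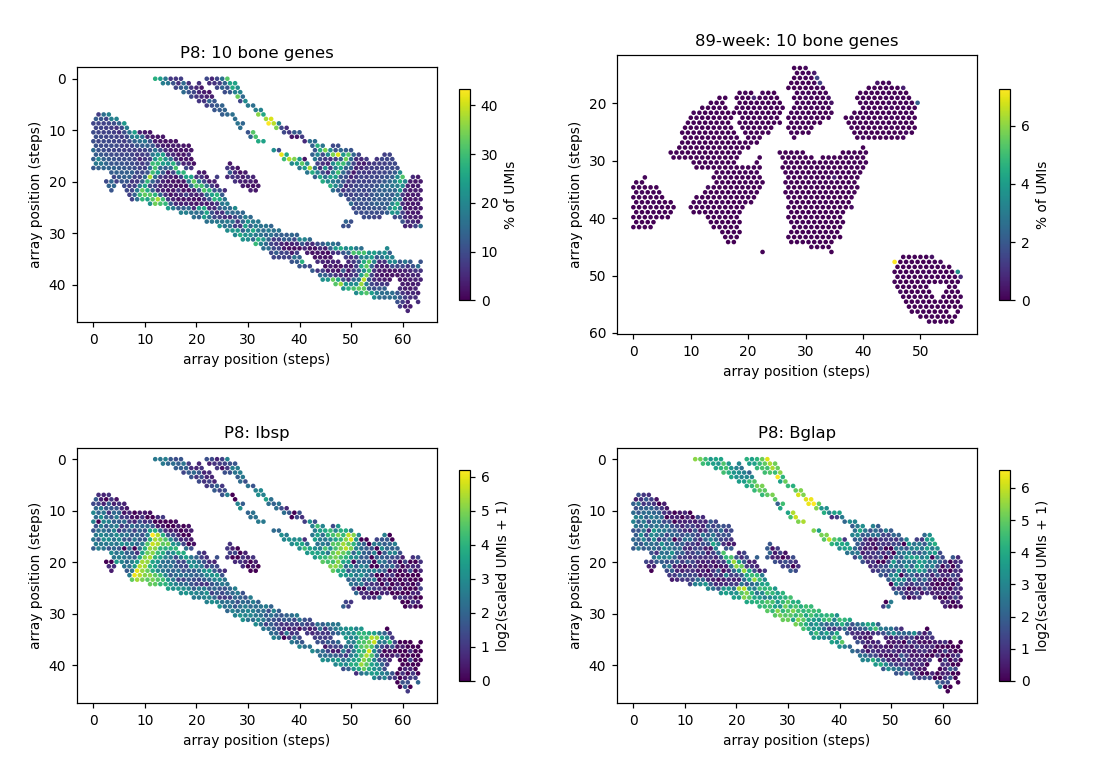
Spots of the P8 section and of the 89-week section at their array positions (both axes in steps between adjacent spots). The upper panels colour the summed share of the 10 genes in percent of UMIs, on scales that end at 43.3% (P8) and 7.26% (89-week); the lower panels colour Ibsp and Bglap in the P8 section as log2 of UMIs scaled to 6000 per spot plus 1, with Ibsp highest in bands across the pieces and Bglap highest along the shafts between them.

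The bands were placed relative to collagen X, a choice made after the maps had been seen, so the following is a description. The 54 spots with the highest share of Col10a1 (5%), the collagen of hypertrophic cartilage, lay in the 2 largest pieces, which had 680 and 322 spots. Alpl and Runx2 were highest in those spots themselves, at 764 and 223 CPM. Cartilage genes took 18.1% of UMIs in these spots and the 10 genes 7.27%. The cell source of Alpl and Runx2 in these spots was not tested. Ibsp was at 1104 CPM there, 3242 at 1 step, 3466 at 2 steps and 493 at 17 or more steps. Sp7 and both collagen I genes were also highest at 2 steps, with Sp7 at 176 CPM, Col1a1 at 109920 and Col1a2 at 87465. Dmp1 differed between the pieces: it was highest at 17 or more steps in the larger, at 772 CPM, with 736 at 2 steps and 709 at 3 to 4, and highest at 3 to 4 steps in the other, at 1074 CPM.

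Bglap was highest farthest from the Col10a1 spots. Over both pieces together it stayed between 221 and 250 CPM up to 4 steps, then was at 436 at 5 to 8 steps, 1075 at 9 to 16 and 2929 at 17 or more. The place of the highest value was the same in both pieces for Ibsp, with 3310 and 4274 CPM at 2 steps, and for Bglap, with 2612 and 4707 CPM at 17 or more. Up to 4 steps Bglap ran from 192 to 245 CPM in the larger piece. In the other it was at 376 CPM at 0 steps, 381 at 1, 286 at 2 and 274 at 3 to 4. Spp1 and Sparc, like Dmp1, differed between the pieces. Spp1 was highest at 17 or more steps in the larger, at 6415 CPM, and at 3 to 4 steps in the other, at 3880 CPM with 3470 at 17 or more. Sparc was highest at 2 steps in the larger and at 9 to 16 steps in the other. The share of neutrophil genes went from 0.0990% in the Col10a1 spots to 1.25% at 17 or more steps, beside the increase of Bglap; its part in that increase was not tested.

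**Figure D4:**
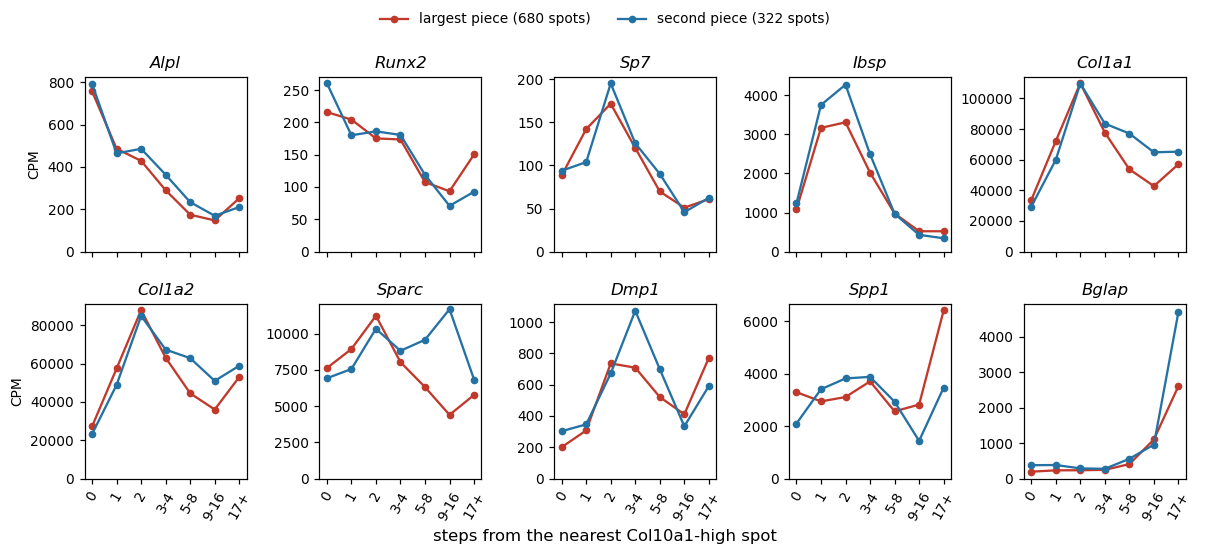
CPM of each gene (vertical axes, each with its own scale from 0) against the number of steps from the nearest of the 54 Col10a1-high spots (horizontal axis, in 7 bands) in the 2 largest pieces of the P8 section, 1 line per piece. Alpl and Runx2 are highest at 0 steps, Ibsp, Sp7, Col1a1 and Col1a2 at 2 steps, and Bglap at 17 or more steps in both pieces.

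The long axis of the largest piece, cut into 12 bins of equal length, was also read without the use of Col10a1. Ibsp had a peak towards each end, of 3144 CPM in bin 3 and 1982 CPM in bin 11, and was at 569 and 672 CPM in bins 6 and 7. Bglap ran the other way, at 270 CPM in bin 3, 3736 CPM in bin 7 and 182 CPM in bin 11. Spp1 and Dmp1 were highest in bin 7 with Bglap, at 9846 and 1161 CPM.

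The windows upstream of these genes are shown because the genes differed in place while sharing a lineage, and because Runx2 is among them. Dmp1, Ibsp and Spp1 neighbour each other on chromosome 5 (GRCm38.p6: Dmp1 at 104197575 to 104214102, Ibsp at 104299287 to 104311472, Spp1 at 104435111 to 104441053), with the matrix gene Mepe between Ibsp and Spp1. Bglap lies on chromosome 3 at 88383495 to 88384466. The RefSeq window table of the same build gave the 250 bases before the start of 8 of the 10 genes in 11 windows, while Col1a1 and Sp7 were not matched in the table used here. The core letters bound by RUNX factors, TGTGGT or ACCACA on the printed strand, were in 4 of the 11 windows and in 14% of all 32851 windows; the match is in capitals. The windows were chr3:88384467-88384716 on the minus strand for Bglap, chr5:104434861-104435110 on the plus strand for Spp1 and chr5:104299037-104299286 on the plus strand for Ibsp, each 5′ to 3′ and ending at the base before the gene's start.
Bglap: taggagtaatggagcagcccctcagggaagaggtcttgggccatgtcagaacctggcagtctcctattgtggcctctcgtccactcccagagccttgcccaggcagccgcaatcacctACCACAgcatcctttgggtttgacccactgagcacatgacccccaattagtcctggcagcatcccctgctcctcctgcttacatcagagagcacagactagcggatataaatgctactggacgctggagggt
Spp1: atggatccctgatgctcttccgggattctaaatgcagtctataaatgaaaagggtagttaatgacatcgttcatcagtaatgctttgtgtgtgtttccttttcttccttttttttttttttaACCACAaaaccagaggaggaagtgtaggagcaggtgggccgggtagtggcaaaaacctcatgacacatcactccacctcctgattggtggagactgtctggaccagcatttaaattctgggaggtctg
Ibsp: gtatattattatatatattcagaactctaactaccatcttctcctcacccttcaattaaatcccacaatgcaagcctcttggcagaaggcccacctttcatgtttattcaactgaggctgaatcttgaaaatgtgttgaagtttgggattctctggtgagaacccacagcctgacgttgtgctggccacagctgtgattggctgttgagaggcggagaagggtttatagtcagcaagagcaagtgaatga
The match began 132 bases before the start in Bglap and 128 bases before it in Spp1, and there was none in the Ibsp window. The other matches were in the windows of Runx2 and of a second start of Dmp1. A match is a description of letters and was not tested for binding.

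The bone genes also differed in which other genes they followed across P8 spots. Sparc went with collagen processing genes (r = 0.92) and cartilage genes (0.58) and against erythroid genes (-0.55). Spp1 went with osteoclast genes (0.82), as did Ibsp (0.68) and Dmp1 (0.64). Bglap had its highest value with neutrophil genes (0.56), which fill marrow. The 10 genes outside the set most like its summed level were Col5a2 (0.83), Serpinf1 (0.76), Col11a1 (0.70), Tnc (0.69), Pcolce (0.67), Lox (0.67), Gja1 (0.67), Cgref1 (0.62), Creb3l1 (0.61) and Serpinh1 (0.60). Each of them was higher at P8 than at 89 weeks, by 15.4 times for Tnc up to 441 times for Col11a1. They were chosen within the P8 section, so their higher level there is not an independent result. The summed level mostly followed type I collagen, with r of 0.99 for Col1a2 and 0.98 for Col1a1. For the rest of the set r ran from 0.35 for Runx2 to 0.70 for Sparc.

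**Figure D5:**
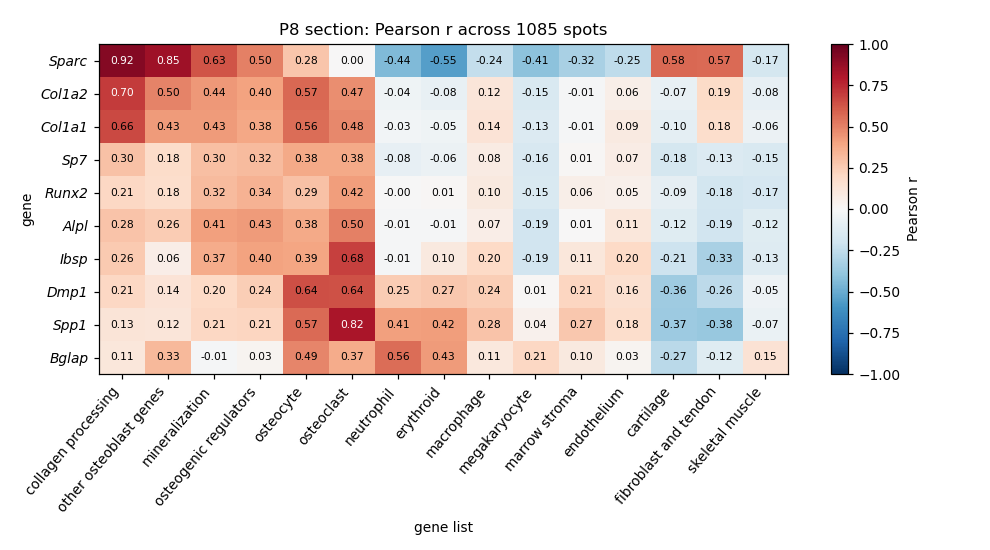
Pearson's r across the 1085 P8 spots between each of the 10 genes (rows) and the summed level of each gene list (columns), with values printed and coloured from -1 (blue) to 1 (red). Sparc, Col1a1 and Col1a2 are highest with collagen processing, Spp1, Ibsp and Alpl with osteoclast genes, and Bglap with neutrophil genes.

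At 89 weeks a few spots held a large share of the remaining counts, and the rest were spread widely. The 5 highest spots held 28.8% of the 5725 counts. The highest had 825 counts among 11366 UMIs, 7.26%, with 443 of Col1a1, 300 of Col1a2, 30 of Bglap and none of Spp1 or Dmp1, and neither of its 2 neighbours held any. Without it Col1a1 was at 146 CPM and the summed share at 0.0582%. The 342 spots with fewer than 6 neighbours, at the edge of the tissue, had 5.61 times the Col1a1 CPM of the 590 inner spots (interval 4.99 to 6.32), or 3.73 times without the highest spot. For Bglap this ratio was 8.80 (5.50 to 14.7), or 6.60 without that spot, and for Col1a2 3.00 (2.72 to 3.31), or 2.25.

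Ibsp and Runx2 were more even. The edge ratio was 1.27 (1.03 to 1.56) for Ibsp and 0.946 (0.791 to 1.13) for Runx2, with inner spots at 41.1 and 64.9 CPM. In the P8 section the edge ratio was 1.69 for Bglap and 0.598 for Ibsp.

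The EDTA section was shallow, so its values are over all 814 in-tissue spots. The 10 genes took 0.269% of its UMIs. Col1a1 was at 954 CPM on 429 counts, 4.81 times its 89-week level (4.32 to 5.36), Col1a2 at 1169 CPM on 526 counts and Spp1 at 169 CPM on 76 counts. Dmp1, on 7 counts, was at 15.6 CPM, 21.9 times its 89-week level (6.30 to 78.8). For Ibsp at 64.5 CPM and Runx2 at 88.9 CPM the ratios were 1.42 (0.936 to 2.07) and 1.40 (0.988 to 1.93), so no difference was detectable at this depth.

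In the purchased fetal livers, Ibsp, Bglap, Sp7 and Dmp1 were near the limit of counting; fetal liver is where blood forms before the marrow does. The 2 purchased fetal livers held 2 and 0 counts of Ibsp, 6 and 5 of Bglap, 3 and 5 of Sp7 and none of Dmp1, at depths where 3 counts equal 0.0534 and 0.0783 CPM. Col1a1 was at 101 and 187 CPM, Col1a2 at 92.4 and 201, Sparc at 66.7 and 82.6 and Spp1 at 1.19 and 1.02. In the cross fetal livers the levels were higher and uneven, with Col1a1 at 459 and 1442 CPM in wild type 2 and 4 and 634 and 1013 in knockout 2 and 4. Wild type 4 held 116 counts of Bglap, 141 of Sp7, 51 of Dmp1 and 35 of Ibsp, and knockout 4 held 149, 154, 49 and 45, all above the 3-count levels of 0.0758 and 0.178 CPM. In knockout 4 Sp7 was at 9.16 CPM and Bglap at 8.86, with Dmp1 at 2.91 and Ibsp at 2.68. The 3-count level covers counting only. The cross spleens held 3.56 to 10.6 CPM of Bglap and 4.27 to 8.78 of Dmp1. They held 2.41 to 6.39 CPM of Ibsp and 2.79 to 7.10 of Sp7. Knockout 4 was above these ranges for Sp7 only, and wild type 4 for none of these genes. Whether the counts in the fetal livers came from bone cells was not tested. In wild type 2 and knockout 2 these 4 genes had 8 to 28 counts each. Their tables have other features and were not compared with the purchased sections by a test.

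In the cross fetal livers the collagen was highest in spots poor in hepatocyte genes. In wild type 4, 566 of 806 spots had under 0.5% of UMIs from hepatocyte genes; Col1a1 was at 2193 CPM in these and 394 CPM in the rest, and Runx2 at 53.0 and 8.48 CPM. The same split gave 6424 and 238 CPM of Col1a1 in wild type 2, 9044 and 386 in knockout 2, and 2263 and 509 in knockout 4. Moran's I in wild type 4 was 0.90 for Col1a1, 0.92 for Col1a2 and 0.83 for Sparc, against a 95th percentile of 0.59 over 16118 features. Across its spots Runx2 went with cartilage genes (r = 0.62) and Spp1 with pancreas genes (r = 0.71). For each of the 10 genes the highest fetal liver remained below the P8 section, by 41.1 times for Col1a1, 418 times for Ibsp and 3.67 times for Runx2. The highest was a cross section, whose table has other features than the P8 table, and the part of that difference was not tested. Against the higher of the purchased fetal livers the ratio was 317 for Col1a1 and 44.0 for Runx2.

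The spleen held the collagens, Sparc and Runx2 but little of the rest. In the purchased spleen Col1a1 was at 110 CPM, Col1a2 at 211, Sparc at 183 and Runx2 at 20.9, with no count of Ibsp or Sp7 (3 counts equal 0.196 CPM), 5 of Bglap and 8 of Dmp1. The 4 cross spleens ran from 126 to 247 CPM for Col1a1, 263 to 373 for Sparc and 17.7 to 32.2 for Alpl. They ran from 2.41 to 6.39 CPM for Ibsp, 3.56 to 10.6 for Bglap, 4.27 to 8.78 for Dmp1 and 2.79 to 7.10 for Sp7. Runx2 was at 50.4 to 101 CPM there with the highest value in wild type 2; the other 3 were at 64.3 CPM or less, against 126 at P8. Over the 5 spleens Moran's I was 0.153 at most for any of the 10 genes. Runx2 is also expressed in some blood cells, and its source in the spleen was not tested.

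The cross asks whether loss of C1qa changed these genes. In fetal liver edgeR's quasi-likelihood test called none of the 10 at an adjusted p under 0.05, and 0% of 18986 genes. The deleted gene was thus not called either, although hardly any of its UMIs remained in the knockout sections. The lack of calls in this fit therefore cannot decide whether loss of C1qa changed the 10 genes. At an unadjusted p under 0.05 there were 138 genes, none of them among the 10, and DESeq2 called 12 genes, none of the 10. DESeq2 gave no adjusted p for Ibsp and Dmp1, so it could not call these. Col1a1, at the levels given above, had a log2 fold change (knockout minus wild type) of -0.28 (SE 0.71, edgeR adjusted p = 1.00). Of the 10 genes 4 had a positive and 6 a negative value, with a median of -0.30 against -0.004 over all genes.

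Spp1 was the gene for which the block mattered. It was at 19.2 and 10.5 CPM in wild type 2 and 4 and at 8.23 and 3.03 CPM in knockout 2 and 4, so both knockouts were below both wild types, as were 2.44% of all genes. Its log2 fold change was -1.53 (SE 0.92, edgeR adjusted p = 1.00). The same number marks offspring of the same dam, and with the replicate number as a block, edgeR called 157 genes and, of the 10, only Spp1, which fell by 1.71 on the log2 scale (SE 0.37, adjusted p = 0.00065). In the dam 4 sections the level differed with tissue content: in wild type 4 Spp1 was at 17.2 CPM in the spots poor in hepatocyte genes and 1.15 CPM in the others, and in knockout 4 at 6.21 and 1.75 CPM. In wild type 2 these were 23.6 CPM on 17 counts and 19.0 CPM, and in knockout 2 0 counts, where 3 counts equal 9.04 CPM, and 8.47 CPM. Over hepatocyte spots alone the pair from dam 4 thus stood in the other order, and in the pair from dam 2 wild type was at 19.0 and knockout at 8.47 CPM. The fit on hepatocyte spots without the block gave -1.23 (SE 1.16, edgeR adjusted p = 1.00), and with the block -0.78 (SE 0.34, edgeR adjusted p = 0.953).

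In spleen none of the 10 genes was called either, where edgeR called 20.6% of 18895 genes. DESeq2, which called 2705 of the 18895 genes, also called none of the 10. It gave no adjusted p for Spp1, Ibsp, Dmp1 and Sp7, so it could not call these. In the edgeR fit all 10 had a negative log2 fold change, with a median of -0.33 against -0.08 over all genes. Of the 10, 2 had an unadjusted edgeR p under 0.05, as did 7475 of the 18895 genes tested. Markers of other cell types also differed between the genotypes: neutrophil genes took 0.0699% and 0.0632% of UMIs in wild type and 0.00875% and 0.0143% in knockout, pancreas genes 0.00556% and 0.0856% against 0.35% and 2.42%, and fibroblast and tendon genes 0.0355% and 0.0422% against 0.0301% and 0.0263%. Without the spots rich in pancreas genes, 0 of the 10 were called and all 10 were still negative; the part of the other lists was not tested. Bglap was at 9.38 and 10.6 CPM in wild type and 6.89 and 3.56 in knockout, a log2 fold change of -0.71 (SE 0.30, edgeR adjusted p = 0.0889). Col1a1 was at 189 and 247 CPM in wild type and 153 and 126 in knockout, -0.39 (SE 0.17, edgeR adjusted p = 0.107). By CPM both knockouts lay below both wild types for 8 of the 10 genes, all but Spp1 and Runx2, and 51% of all genes did the same. The calls depended on scaling: with upper-quartile factors, which moved the median of all genes to -0.37, edgeR called 1197 genes higher and 4400 lower in place of 2603 and 1283, and 4 of the 10, Col1a1, Col1a2, Bglap and Runx2, fell.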

How the data were processed

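The deposited matrices are UMI counts, not normalized, for every gene in every spot, which the authors made from probe-based libraries with Space Ranger on the mm10 genome, per the labels; its version is not given in the sources used here. The purchased sections have spots on and off tissue, the cross sections in-tissue spots only. How many probes target each gene is not given in the sources used here, so levels were compared between sections, not between genes, other than as shares of UMIs. The labels name 1 sample for each purchased group. In the cross, p-values without the block rest on the spread between the 2 sections of a group, which in fetal liver includes the difference between dams. In fetal liver, p-values with the block rest on the spread left after the dam difference is taken out.

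Spots over tissue in which 1000 or more genes were detected entered the analysis, and counts were summed per section (CPM). Ratios between single sections have exact conditional 95% intervals, CPM and floors (3 counts) exact Poisson ones. A feature passed at a 4-fold ratio with at least 20 counts over both sections. Moran's I and correlations used log2 of counts scaled to 6000 UMIs per spot plus 1 (a pseudocount of 1), over genes found in at least 50 spots; spots were also thinned to 2000 UMIs. Section sums of the cross were tested with edgeR 4.0.16 (R 4.3.3; TMM, filterByExpr, quasi-likelihood, Benjamini-Hochberg, threshold 0.05), with DESeq2 1.42.0 as an alternative, after a test on simulated data. Other steps used Python 3.11.15, numpy 2.4.6 and scipy 1.17.1.

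Fetal livers with the same number came from the same dam, per the study, and deviated together (correlation 0.64 over 18986 genes); for spleens no source pairs the numbers and the correlation was 0.03. The 10 genes and all gene lists were chosen with earlier results of these data known. Named genes were all 10 genes, the 3 of each companion list with the highest P8 CPM, of which some are printed, and the 10 genes most like the summed level at P8; Col10a1 was added after values were seen. A gene that the naming rule selects is not reported here. No sections were identical: chi-square over its degrees of freedom was 21.9 or more for every replicate pair.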

Additional observations from a re-analysis of the deposited data

Results flagged for a closer look

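Spots outside the tissue held the 10 genes above the level in the control sections, and these spots enter no comparison. In the P8 section 11.75% of the 10422598 off-tissue UMIs came from the 10 genes, against 12.2% in tissue. In the 89-week section the off-tissue share was 0.0959%, against 0.0679% in tissue, and in the EDTA section it was 0.9252% on 341 counts, against 0.269% in tissue. The purchased fetal livers had 0.0457% and 0.0744% off tissue and the purchased spleen 0.0577%. At P8 the share was 12.2% at 1 step from the tissue, 10.8% at 3 to 4 steps and 12.2% at 9 or more, while the median UMIs per spot went from 6688 to 312.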

How the results depend on the processing

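The summed ratio of P8 to 89-week marrow (180) was 131 over marrow spots only, 217 with muscle, cartilage and the 10 genes left out of the denominator, 33.5 without Col1a1, Col1a2 and Sparc, and 210.2 without the highest 89-week spot, an alternative chosen after seeing the data; the other 4 settings gave 178 to 185. Moran's I of the summed genes at P8 (0.71) was 0.42 for spots 2 steps away. In fetal liver the replicate block called 1 of the 10 genes and 157 of all genes against 0 without it, DESeq2 called 12 genes and the fit on hepatocyte spots 1; in hepatocyte spots the log2 fold change of Col1a1 turned to 0.29 and that of Sparc to 0.013. With the block in hepatocyte spots, chosen after seeing the data, 27 genes and 0 of the 10 were called, with Col1a1 at 0.27 and Sparc at 0.0039. Leaving out one section gave 0 of the 10 genes in fetal liver, with 109 genes called without wild type 2, 103 without wild type 4 and 0 without either knockout. In spleen upper-quartile scaling called 4 of the 10 genes and 5597 of all 18895. Without wild type spleen 1 the log2 fold change was -0.577 for Col1a1 and -0.567 for Runx2, and without knockout spleen 1 it was -1.13 for Bglap. Without knockout spleen 2, 240 genes were called in place of 3886. Spleen numbers are not shown to pair animals; the replicate block there called 4968 genes and 0 of the 10. The block changed no other call among the 10. Over the fits that left out one section, fetal liver log2 fold changes ran from -0.61 to 0.19 for Col1a1, -1.61 to 0.27 for Col1a2, -1.83 to 1.16 for Alpl, -1.55 to 0.10 for Runx2, -0.29 to 2.06 for Sp7, -3.20 (without knockout 2) to -0.40 (without wild type 2) for Spp1 and 0.0031 to 1.40 for Bglap, and spleen ones from -0.63 to 0.34 for Spp1, -0.49 to 0.11 for Alpl and -0.57 to 0.25 for Runx2; a lone section was assumed to vary like the other group. The causes were not tested. CPM kept within the spread in 136 section and gene pairs when all in-tissue spots were used and moved in 4.

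Precision was limited by 1 section per age, 2 sections per genotype and tissue, and low counts of Dmp1 (6) and Sp7 (26) at 89 weeks and in the EDTA section.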
